A study of Mus musculus with 12 samples.

Results

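The transcripts described here are those of the mouse mitochondrial genome, measured in alveolar macrophages, the resident phagocytes of the air spaces. They were taken as every row of the deposited gene table whose mouse symbol begins with mt-, which gave 34 of 26855 rows. These were all 13 protein genes, both ribosomal RNAs and 19 of the 22 transfer RNAs (tRNAs) annotated on this genome. The tRNAs mt-Tf, mt-Th and mt-Tr had no row. After the low-count filter 20 members could be tested, namely the 13 protein genes, the 2 ribosomal RNAs and 5 tRNAs.

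Mice received bleomycin, which damages the lung and is a common model of fibrosis, and their bronchoalveolar lavage fluid was collected on day 14. Every group carries that treatment, and an untreated group is not analysed here. Size filtration gave cell fractions with many or few border-associated alveolar macrophages, and sorting used side scatter and BODIPY, a dye for neutral lipid, with high, intermediate and low gates. The 12 libraries form 3 groups of 4, titled UPBIG, UPSMALL and DOWN, and the labels tie no title to a fraction or gate and give no strain or age. Cells were lysed directly and polyadenylated RNA was copied and amplified as full-length cDNA. No label names a mouse for each replicate. The p-values therefore rest on the spread among these libraries, and that spread may be technical.

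The mitochondrial genome is a small circle that is transcribed on both strands into long RNAs, from which messenger and ribosomal RNAs are released where the intervening tRNAs are cut out. Its messenger RNAs encode core subunits of respiratory complexes I, III, IV and V, while the other subunits, and all of complex II, come from nuclear genes. The polymerase Polrmt works with the packaging factor Tfam, and the partners Lrpprc and Slirp stabilise the mature messengers. Alveolar macrophages take up and degrade surfactant lipid, and respiration is a main source of energy in the resident cells.

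Library totals ran from 17109669 to 23282621 expected counts. All 12 markers of resident alveolar macrophages had counts, and their summed level was 9955 to 13148 CPM (counts scaled to library size) in UPBIG, 10168 to 15190 in UPSMALL and 7763 to 11781 in DOWN. Of these 12 markers edgeR called 7 higher and 1 lower in UPBIG against DOWN (median log2 fold change 0.69), beside 9.03% and 8.48% of all genes. In UPBIG against UPSMALL 4 were higher and 1 lower (0.19), beside 3.22% and 2.49%. In UPSMALL against DOWN 5 were higher and 0 lower (0.57), beside 0.594% and 0.547%. Markers of other cells also differed between the groups. The 8 monocyte markers summed to 40.7 to 52.5 CPM in UPBIG, 91.3 to 163 in UPSMALL and 269 to 326 in DOWN, and the 10 dendritic cell markers to 7.61 to 13.8, 33.4 to 93.2 and 69.8 to 186 CPM in the same order. The 15 T and NK cell markers summed to 119 to 192 CPM in UPBIG, 67.7 to 121 in UPSMALL and 120 to 236 in DOWN, with Cd2 and Il7r the most abundant of them. Of the 13 T and NK markers tested, edgeR called 9 lower and 0 higher in UPBIG against DOWN, with a median log2 fold change of -3.57. It called 7 lower and 0 higher in UPSMALL against DOWN, with a median of -3.50. The 9 of 10 neutrophil markers with a row summed to 383 to 420, 163 to 223 and 134 to 175 CPM, most of it S100a8. Lung epithelial markers, 13 in all and each with a count, summed to 74.2 to 316, 77.1 to 130 and 61.2 to 89.6 CPM. The 8 B cell markers stayed under 31 CPM in every library, and the 4 of 5 red blood cell markers with a row under 1 CPM. Lyz2, Ftl1 and Fth1 together took 26.5% to 29.1% of counts in UPBIG, 15.5% to 23.8% in UPSMALL and 19.5% to 22.0% in DOWN. UPSMALL replicate 4 stood apart, with the 15.5%. The part of these shifts in the mitochondrial results was not tested.

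Some mitochondrial reads cannot be told apart from reads of nuclear genes, because fragments of the mitochondrial genome have been copied into the chromosomes. A search of the annotated transcripts found 16 such copies, defined as at least 90% identical over at least 50% of their length. Of these, 7 were at least 99% identical over at least 90% of their length. All 7 lie in 1 block on the minus strand of chromosome 1 (mm10), between 24611535 and 24616197, and 6 have a row in the table. The following pairs are shown because the table divides reads between them. Gm28437 matches mt-Co3 over its whole 783 bases with no mismatch, and the last base of mt-Co3 lies outside it. Gm28438 differs from mt-Nd3 by T3C over 345 aligned bases, and Gm29216 differs from the 3′ part of mt-Co1 by A1066T over 483, with positions counted from 1 at the 5′ end of the mitochondrial gene. Sequences are from GENCODE M21 transcripts on GRCm38, the assembly also called mm10. In the first 4 lines the capital marks the mismatch, and in the last line capitals mark the bases that mt-Co3 shares with Gm28437.
mt-Nd3 (chrM:9459-9491, plus strand): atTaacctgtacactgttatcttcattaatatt
Gm28438 (chr1:24613087-24613119, minus strand): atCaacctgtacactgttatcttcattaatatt
mt-Co1 (chrM:6390-6423, plus strand): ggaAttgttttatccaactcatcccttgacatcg
Gm29216 (chr1:24616155-24616188, minus strand): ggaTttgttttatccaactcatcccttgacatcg
mt-Co3 end (chrM:9331-9390, plus strand): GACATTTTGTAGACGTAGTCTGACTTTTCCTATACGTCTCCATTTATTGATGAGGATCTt

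The copies held a large part of the reads. Gm28437 had 111854 to 199253 expected counts per library, and the mt-Co3 row held 7.93% to 26.5% of the sum of the pair. The mt-Co1 row held 42.3% to 62.6% of its sum with the copies Gm29216 and Gm13340, and the mt-Nd3 row 37.7% to 79.5% of its sum with Gm28438. For mt-Nd4l the share was 0% to 17.6% of the sum with Gm10222, and the mt-Nd4l row was listed at 0 in 6 of the 12 libraries. Within a tolerance of 0.02 these 4 sums were whole numbers in 12 of 12 libraries, while the mt-Co3, mt-Co1 and mt-Nd3 rows alone were whole in 0 of 12. For mt-Co2 and mt-Nd4, copies took less than 0.1% of the sum in each library. The division also moved between libraries of 1 group. In the UPSMALL libraries the mt-Co3 row held 12.5%, 8.31%, 13.7% and 26.5% of its sum. Values below are therefore given for the rows as deposited and, for these genes, also for the sums with the near-identical copies, a counting added after the data were seen.

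**Figure D1:**
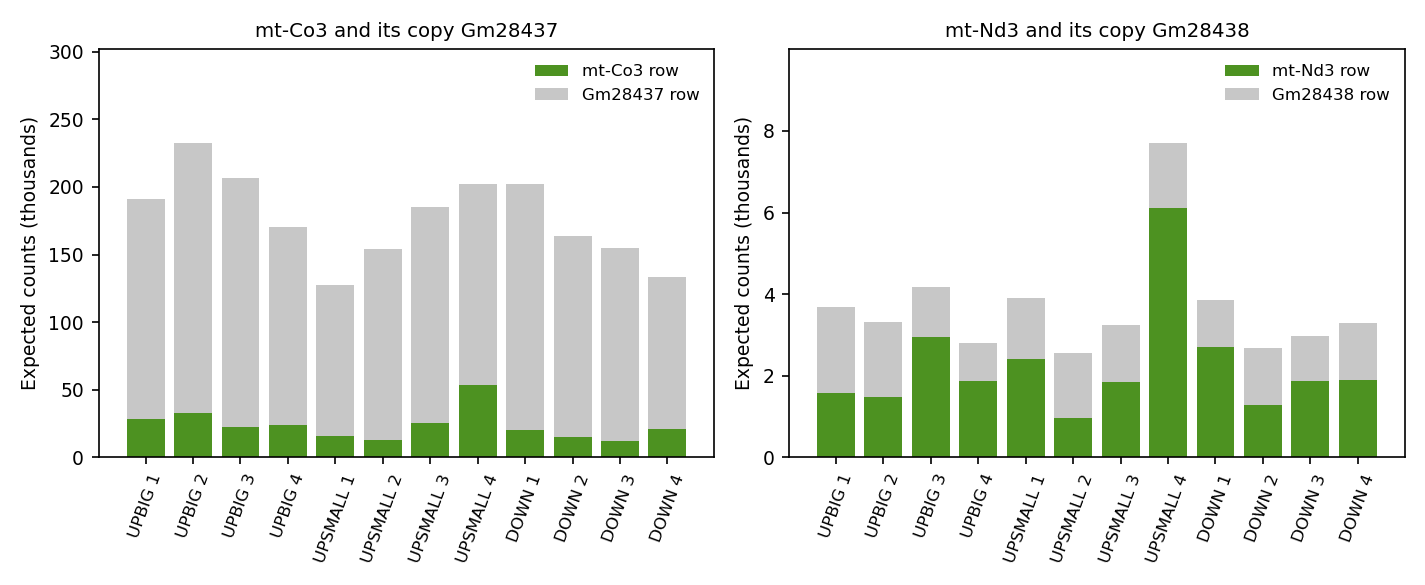
Expected counts in the mt-Co3 and mt-Nd3 rows (green) and in the rows of their near-identical nuclear copies Gm28437 and Gm28438 (grey), for each of the 12 libraries. The mt-Co3 row holds 7.93% to 26.5% of its pair, and UPSMALL replicate 4 has the largest mt-Nd3 sum.

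Mitochondrial transcripts took a larger share of the counts in UPBIG libraries. They made up 4.05%, 4.73%, 5.19% and 4.50% of all counts in UPBIG, 2.68%, 2.78%, 3.23% and 3.43% in UPSMALL, and 3.15%, 2.90%, 2.94% and 2.49% in DOWN. Each UPBIG library lay above each library of both other groups, and UPSMALL and DOWN overlapped. The means were 4.62% ± 0.473 in UPBIG, 3.03% ± 0.359 in UPSMALL and 2.87% ± 0.277 in DOWN (SD, n = 4 each). A two-sided exact permutation test gave p = 0.0286 for UPBIG against DOWN and against UPSMALL, the smallest that 4 against 4 allows, and 0.486 for UPSMALL against DOWN. After adjustment over the 24 tests of shares and classes the first 2 became 0.137, so neither passed. With the near-identical copies added the shares were 6.22% ± 0.576, 4.21% ± 0.472 and 4.06% ± 0.380 in the same order, and the UPBIG libraries again stood clear. In bulk libraries, fewer cells of a type and less RNA per cell cannot be told apart. Shares and levels here describe RNA that was copied as polyadenylated, not total RNA, also for the ribosomal RNAs, the tRNAs and mt-Nd6.

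**Figure D2:**
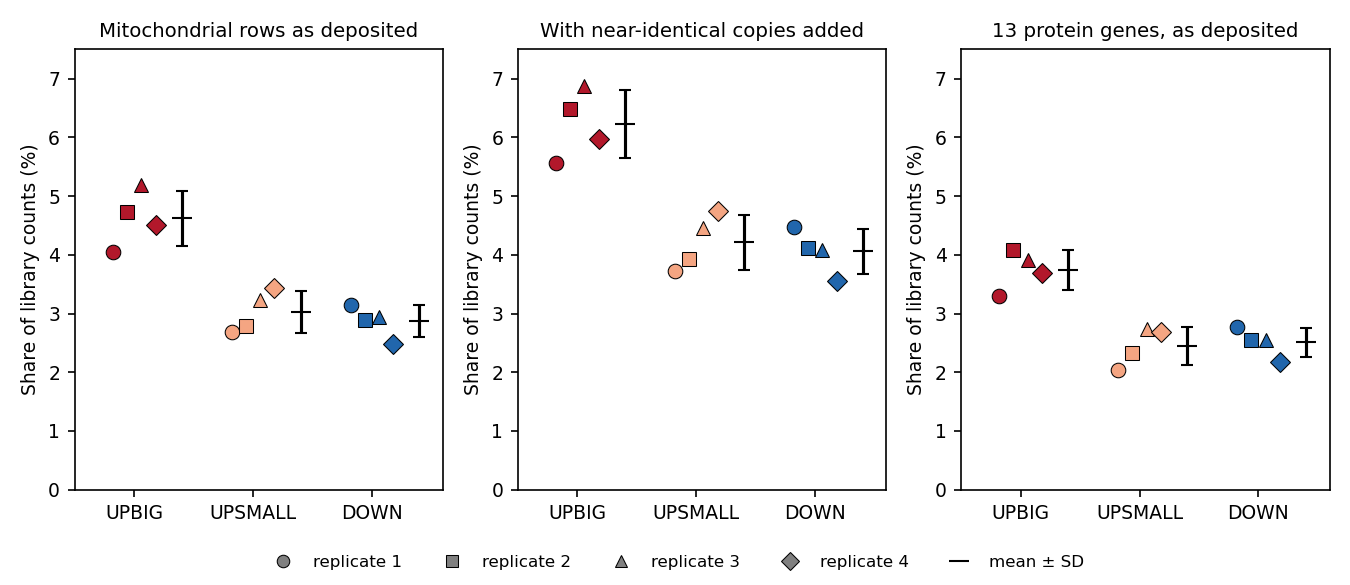
Share of library counts (%) taken by the mitochondrial rows as deposited (left), by the same rows with near-identical copies added (middle) and by the 13 protein genes as deposited (right). Points are libraries, shaped by replicate, and bars are the mean ± SD of 4. All UPBIG points lie above all UPSMALL and DOWN points in each panel.

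Gene by gene, 13 of the 20 tested members rose in UPBIG against DOWN and 0 fell by edgeR's quasi-likelihood test at an adjusted p under 0.05, where 9.03% of all 12625 tested genes were called higher, 8.48% lower and 17.5% in either direction. In UPBIG against UPSMALL 11 rose and 0 fell, with 3.22% of all genes called higher, 2.49% lower and 5.7% in either direction. In UPSMALL against DOWN 1 rose, mt-Rnr2, against 0.594% of all genes called higher, 0.547% lower and 1.14% in either direction. The unadjusted p was under 0.05 for 1 of the 20 members in that comparison. The median log2 fold change of the 13 protein genes was 0.97, 0.98 and -0.02 in these comparisons, beside -0.03, -0.03 and -0.00 for all tested genes. Without UPSMALL replicate 4 the counts called were again 13, 11 and 1 but the members differed. Against DOWN mt-Te was gained and mt-Nd5 lost, and against UPSMALL mt-Ts1 and mt-Co3 were gained and mt-Atp8 and mt-Nd5 lost. The first 2 comparisons share the UPBIG libraries and are not independent. With copies merged the counts of members called higher were 14, 13 and 1, beside 9.01%, 3.21% and 0.618% of all genes. Scaling by library totals alone shifted the median of all genes to -0.36 in UPBIG against DOWN and -0.31 in UPBIG against UPSMALL, and the protein genes stood at medians of 0.66 and 0.70, with 8 and 9 of 13 called higher, beside 4.1% and 1.5% of all genes called higher under that scaling.

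**Figure D3:**
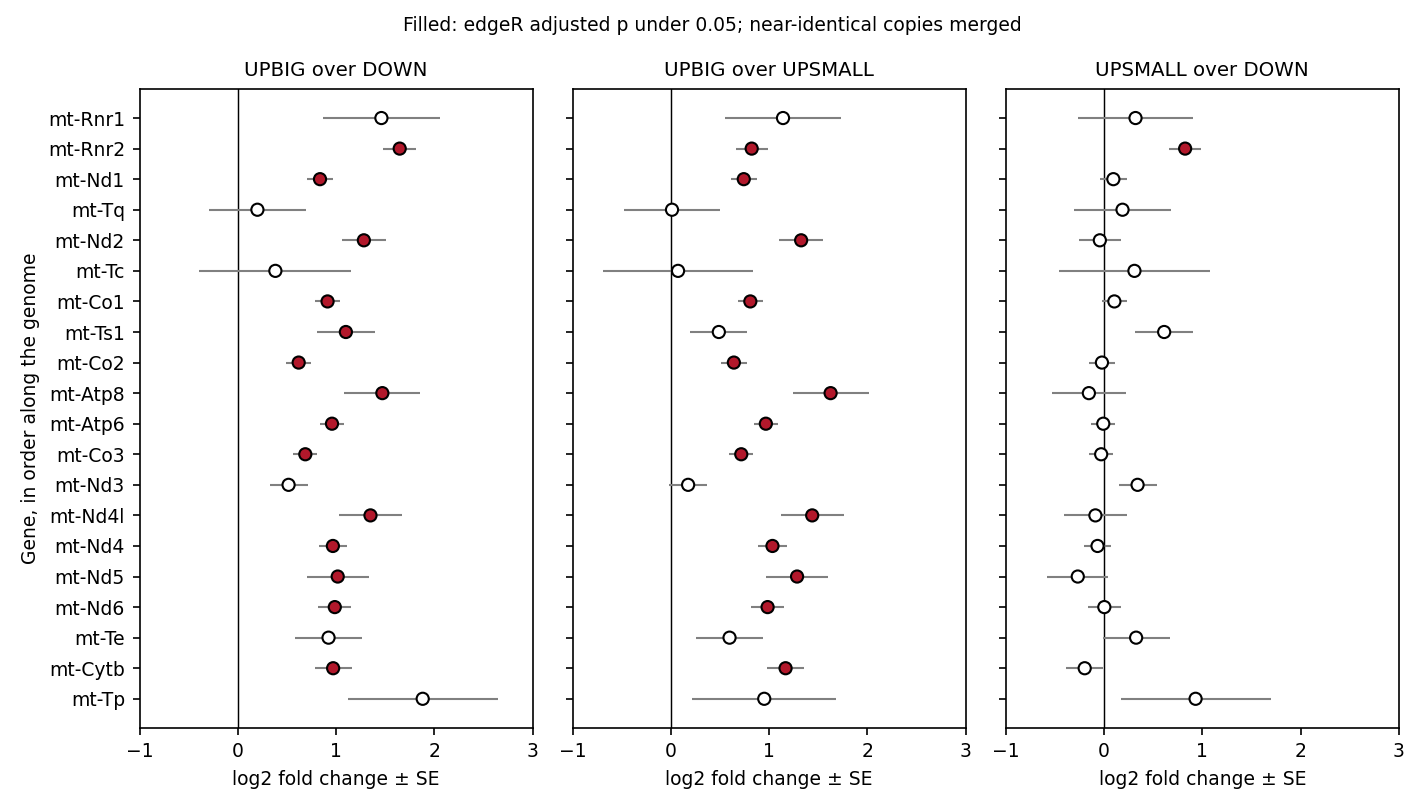
Log2 fold change ± SE of the 20 tested members in genome order, with near-identical copies merged, for UPBIG over DOWN, UPBIG over UPSMALL and UPSMALL over DOWN. Filled points passed edgeR's adjusted p of 0.05. Fold changes of the protein genes lie between 0.52 and 1.47 in the left panel and between -0.27 and 0.34 in the right one, where mt-Rnr2 is the one filled point.

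The messengers of ATP synthase, complex V, were among those that rose. mt-Atp6, which forms the proton channel of the enzyme, had 8917, 9992, 10229 and 9769 CPM in UPBIG, 4549.5, 4975, 5620.5 and 4797 in UPSMALL, and 5576, 4901, 5459 and 4113 in DOWN. The lowest UPBIG library lay well above the highest of either other group. Its log2 fold change was 0.96 ± 0.12 (SE) against DOWN with an edgeR adjusted p of 2.15e-05, and 0.96 ± 0.12 against UPSMALL with 4.92e-05. mt-Atp8, a small subunit beside the channel, had 88.1, 128, 251 and 186 CPM in UPBIG, 31.0, 67.8, 73.6 and 39.3 in UPSMALL, and 70.5, 49.8, 75.6 and 39.7 in DOWN. It rose by 1.47 ± 0.39 against DOWN (edgeR adjusted p = 0.0251) and 1.63 ± 0.39 against UPSMALL (0.0372), although its UPBIG libraries differed among themselves by more than the mt-Atp6 ones. The call against DOWN ended without UPBIG replicate 3 or 4 or DOWN replicate 2 or 4, and with no low-count filter (adjusted p up to 0.0652). The one against UPSMALL ended without any 1 of 7 libraries, UPBIG replicates 2, 3 or 4, UPSMALL replicates 1, 2 or 4 or DOWN replicate 2, with an adjusted p of at most 0.109. It was lost in 10 of 24 alternative settings, among them no low-count filter and only the 8 libraries compared.

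The 2 genes overlap, as do mt-Nd4l and mt-Nd4, and each pair is known to be carried on 1 messenger. The overlap is shown because reads within it fit both genes. Capitals mark the bases that belong to both, 43 in the first and 7 in the second.
mt-Atp8 into mt-Atp6 (chrM:7907-7989, plus strand): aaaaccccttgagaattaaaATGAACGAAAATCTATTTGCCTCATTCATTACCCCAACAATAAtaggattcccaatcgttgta
mt-Nd4l into mt-Nd4 (chrM:10147-10193, plus strand): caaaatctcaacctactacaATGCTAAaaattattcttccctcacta
Counts per kilobase were far apart within each pair. As the genes of a pair are on a shared messenger, these gaps cannot be read as differences in transcript level. Per kilobase of gene and with copies merged, mt-Atp8 averaged 696 ± 299 CPM and mt-Atp6 12468 ± 825 CPM in UPBIG (SD, n = 4). mt-Nd4l averaged 134 ± 59.4 CPM per kilobase and mt-Nd4 1952 ± 196 in the same libraries. Within the tolerance of 0.02 the mt-Atp6 row alone was whole in 6 of 12 libraries. Its sum with mt-Atp8, Gm10925 and AC124578.3 was whole in 12 of 12. The row was fractional in every UPBIG library, in UPSMALL replicate 3 and in DOWN replicate 1. The part of this division in the rise of mt-Atp8 was not tested.

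Cytochrome c oxidase, complex IV, has 3 mitochondrial subunits, and each of their rows rose against DOWN. mt-Co1, the catalytic subunit that carries the heme groups, had 9493, 12379, 9134 and 9218 CPM in its deposited row in UPBIG, 4512, 6405, 6295 and 4187 in UPSMALL, and 5825, 5972, 5657 and 3939 in DOWN. Its log2 fold change was 0.91 ± 0.17 against DOWN and 0.91 ± 0.17 against UPSMALL (edgeR adjusted p = 0.000765 and 0.00191). With copies merged it averaged 17597 ± 1593, 10048 ± 989 and 9341 ± 1124 CPM (SD, n = 4), and the fold changes were 0.91 ± 0.13 and 0.81 ± 0.13. mt-Co2, which accepts electrons from cytochrome c, had 6100.4, 6526, 7836 and 6899 CPM in UPBIG, 3793, 3838, 4611 and 5308 in UPSMALL, and 4988, 4270.1, 4398 and 4153 in DOWN. It rose by 0.62 ± 0.13 and 0.64 ± 0.13 (edgeR adjusted p = 0.00248 and 0.00474). With library totals alone these were 0.30 and 0.35 and were not called.

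The result for mt-Co3, the third core subunit, depended on the copies. Its deposited row had 1757, 1962, 1316 and 1657 CPM in UPBIG, 848, 640.0, 1126 and 1963 in UPSMALL, and 883, 734, 623 and 992 in DOWN. UPSMALL replicate 4 reached the highest UPBIG library, and the row rose against DOWN (1.05 ± 0.30, edgeR adjusted p = 0.0302) but did not pass against UPSMALL (0.55 ± 0.29, 0.373), where it passed without UPSMALL replicate 4 (0.95 ± 0.20, 0.0107). Summed with Gm28437, mt-Co3 had 11906, 13862, 12103 and 11627 CPM in UPBIG, 6785, 7702, 8231 and 7413 in UPSMALL, and 8724, 7870.4, 7859 and 6285 in DOWN. In the sums the UPBIG libraries lay above those of both other groups. The sum rose by 0.69 ± 0.12 against DOWN and by 0.72 ± 0.12 against UPSMALL (edgeR adjusted p = 0.000657 and 0.0011). Called on its row alone, the gene lost its call against DOWN without any 1 of UPBIG replicates 1, 2 or 4 or DOWN replicates 1, 2 or 3 (adjusted p up to 0.0773), and with library totals alone (0.158). The call was also lost with no low-count filter.

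Complex I, the NADH dehydrogenase, has 7 mitochondrial subunits. mt-Nd1 had 3994, 4482, 4560.5 and 4057 CPM in UPBIG, 2341, 2578, 2683 and 2622 in UPSMALL, and 2840.5, 2349.8, 2655 and 1726 in DOWN, and rose by 0.84 ± 0.14 and 0.74 ± 0.14 (edgeR adjusted p = 0.000235 and 0.0018). mt-Nd2 had 899, 1197, 1689 and 1473 CPM in UPBIG, 430.1, 586, 648 and 434 in UPSMALL, and 588, 492, 709 and 371 in DOWN. It rose further than mt-Nd1, by 1.28 ± 0.22 and 1.33 ± 0.22 (edgeR adjusted p = 0.000953 and 0.00186), a difference between genes that was not itself tested here. mt-Nd4 averaged 3086 ± 291 CPM in UPBIG, 1507 ± 264 in UPSMALL and 1578 ± 256 in DOWN (SD, n = 4), with no overlap between UPBIG and the others, and rose by 0.97 ± 0.14 and 1.03 ± 0.14. mt-Nd5 was less firm. It averaged 675 ± 197, 277 ± 82.0 and 334 ± 113 CPM, UPBIG replicate 1 at 408 CPM fell below DOWN replicate 3 at 431 CPM, and the edgeR adjusted p was 0.0476 against DOWN and 0.0392 against UPSMALL. The mt-Nd5 call against DOWN was lost in 13 of 24 alternative settings and the one against UPSMALL in 9 of 24. In the leave-one-out fits the losses were without UPBIG replicates 2, 3 or 4, UPSMALL replicates 2 or 4 or DOWN replicates 1, 2 or 4 against DOWN, and without UPBIG replicates 2, 3 or 4, UPSMALL replicates 1, 2 or 4 or DOWN replicate 2 against UPSMALL.

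mt-Nd6 is the one protein gene on the minus strand of the reference sequence, so its messenger is cut from the transcript of the other strand. It had 441, 496, 788 and 583 CPM in UPBIG, 245, 294, 291 and 337 in UPSMALL, and 347, 255, 325 and 237 in DOWN. The rise was 0.99 ± 0.17 against DOWN and 0.98 ± 0.17 against UPSMALL (edgeR adjusted p = 0.000415 and 0.00108), close to the medians of the protein genes given above. mt-Nd6 overlaps mt-Nd5 by 14 bases on opposite strands, and whether counting used strand is not stated in the labels. If it did not, reads of mt-Nd6 and of RNA that crosses it on the other strand cannot be told apart.

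mt-Nd3 and mt-Nd4l did not pass on their rows alone. The mt-Nd3 row averaged 122 ± 37.7 CPM in UPBIG, 121 ± 76.6 in UPSMALL and 90.8 ± 22.6 in DOWN. Summed with Gm28438, mt-Nd3 had 229, 198, 244 and 191 CPM in UPBIG, 208, 128, 144 and 282 in UPSMALL, and 167, 128, 150.3 and 156 in DOWN. That sum was not called either, with 0.52 ± 0.19 against DOWN (edgeR adjusted p = 0.0789) and 0.18 ± 0.19 against UPSMALL (0.717). mt-Nd4l summed with Gm10222 had 24.5, 33.2, 69.1 and 56.8 CPM in UPBIG, 12.2, 17.0, 23.7 and 14.8 in UPSMALL, and 21.2, 18.0, 21.6 and 11.2 in DOWN. This sum rose by 1.35 ± 0.32 and 1.44 ± 0.32 (edgeR adjusted p = 0.0102 and 0.018), and the UPBIG libraries lay above the others.

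Complex III has a single mitochondrial subunit, the cytochrome b gene mt-Cytb. It had 3228, 4450.4, 5031 and 4951 CPM in UPBIG, 1465, 2104, 2643 and 1653 in UPSMALL, and 2503, 2233, 2630.5 and 1648 in DOWN. UPBIG lay above both, and the log2 fold changes were 0.97 ± 0.19 and 1.17 ± 0.19 (edgeR adjusted p = 0.00154 and 0.000836). Against DOWN, UPSMALL stood at -0.20 ± 0.19 (adjusted p = 0.73).

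Of the ribosomal RNAs, mt-Rnr2 rose further against DOWN than every protein gene in the deposited rows. In UPBIG against UPSMALL its rise lay within the range of the protein genes. mt-Rnr2, the large subunit RNA of the mitochondrial ribosome, had 7916, 6534, 10754 and 7337 CPM in UPBIG, 5707, 4141, 3642 and 4915 in UPSMALL, and 2840.4, 2462, 2882 and 2201 in DOWN. The 3 groups formed 3 separate levels with no overlap. It rose by 1.65 ± 0.17 in UPBIG against DOWN, by 0.82 ± 0.16 in UPBIG against UPSMALL and by 0.83 ± 0.16 in UPSMALL against DOWN (edgeR adjusted p = 1.28e-06, 0.00387 and 0.0191). The last of these calls was lost without UPSMALL replicate 1 or DOWN replicate 2 (adjusted p up to 0.0750). mt-Rnr1, the small subunit RNA, had 807, 676, 3802 and 2165 CPM in UPBIG, 548, 388, 1089 and 1353 in UPSMALL, and 756, 648, 808 and 493 in DOWN. Its groups overlapped and it passed in no comparison (edgeR adjusted p = 0.135, 0.366 and 0.88).

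The ratio of the 2 ribosomal RNAs split the libraries within groups. mt-Rnr2 had 9.81, 9.66, 2.83 and 3.39 counts per mt-Rnr1 count in UPBIG replicates 1 to 4, 10.4, 10.7, 3.34 and 3.63 in UPSMALL, and 3.76, 3.80, 3.57 and 4.46 in DOWN. Replicates 1 and 2 of UPBIG and UPSMALL were thus high and replicates 3 and 4 low, while the DOWN libraries lay close together. The labels give no batch that matches this division. As a share of mitochondrial counts the 2 RNAs held 18.6%, 13.7%, 24.3% and 18.1% in UPBIG, 23.9%, 16.1%, 15.3% and 21.4% in UPSMALL, and 12.2%, 11.8%, 12.9% and 12.6% in DOWN. All UPBIG and UPSMALL libraries lay above all DOWN libraries (two-sided exact permutation p = 0.0286 each, and 0.137 adjusted over 24 tests). A nuclear transcript of ribosomal RNA type, CT010467.1, took 0.537% to 1.26% of all counts in UPBIG, 0.368% to 1.10% in UPSMALL and 0.0873% to 0.107% in DOWN, with its highest UPBIG and UPSMALL values both in replicate 1. Its part in the mitochondrial ribosomal RNA result was not tested.

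**Figure D4:**
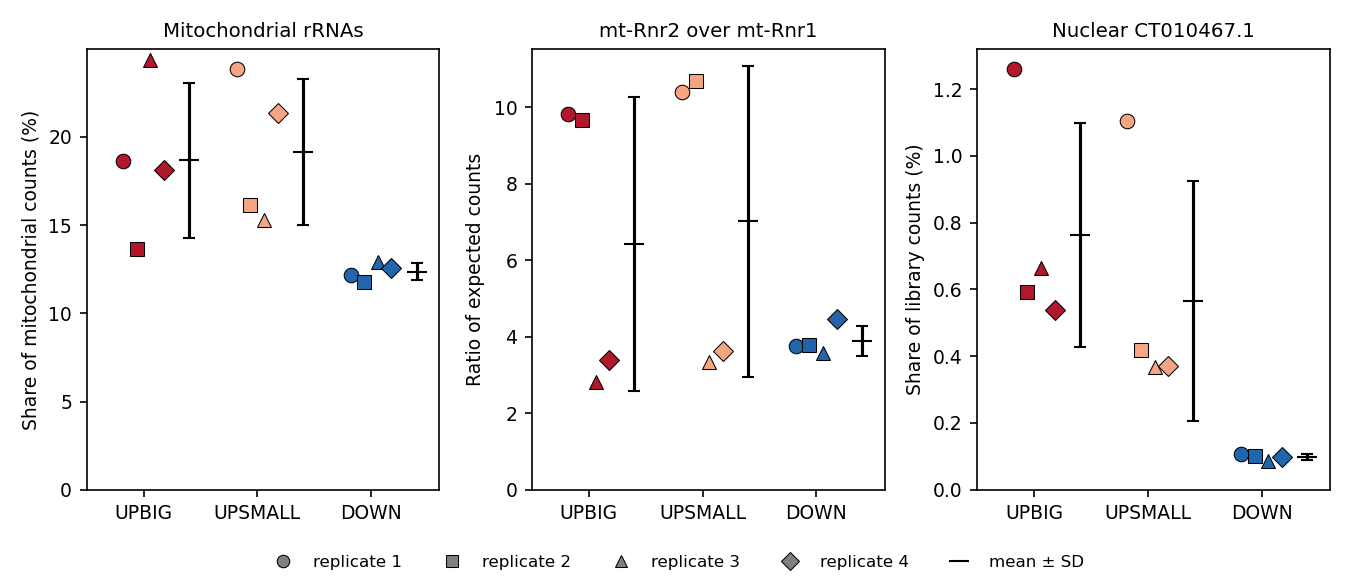
Mitochondrial ribosomal RNAs as a share of mitochondrial counts (%, left), the ratio of mt-Rnr2 to mt-Rnr1 expected counts (middle) and the share of library counts (%) of the nuclear ribosomal RNA-like transcript CT010467.1 (right). Points are libraries, shaped by replicate, and bars are the mean ± SD of 4. DOWN libraries cluster at 11.8% to 12.9% in the left panel, below every UPBIG and UPSMALL library.

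With the mitochondrial total in place of the library total, the question becomes which members changed their place among the others. In UPBIG against DOWN, mt-Rnr2 was higher (0.64 ± 0.18, edgeR adjusted p = 0.0025) and mt-Co2 lower (-0.39 ± 0.14, 0.018), and no other of the 20 was called. On this scale 73.9% of all tested genes were called, 1.36% higher and 72.5% lower. Both member calls held with each library left out. With protein genes as library size, a replicate block or copies merged, 1 call was lost and 1 gained across these settings. The adjustment ran over all tested genes, so where most of them were called it was mild for the 20 members. Adjusted p-values on this scale therefore cannot be compared between comparisons. In UPBIG against UPSMALL, mt-Nd2 (0.43 ± 0.17, edgeR adjusted p = 0.0276) and mt-Atp8 (0.72 ± 0.26, 0.0214) were higher, with 70.6% of all genes called and 0.459% called higher. Both calls were lost without any 1 of UPBIG replicates 3 or 4 or UPSMALL replicates 1 or 4 (adjusted p up to 0.0921 for mt-Nd2 and 0.0884 for mt-Atp8). In UPSMALL against DOWN, mt-Rnr2 was higher (0.73 ± 0.18, edgeR adjusted p = 0.041), with 1.01% of all genes called and 0.198% called higher. That call was lost without any 1 of UPBIG replicate 4, UPSMALL replicates 1, 2 or 4 or any DOWN library (adjusted p up to 0.199). With copies merged, UPBIG against UPSMALL gained mt-Nd4l (0.59 ± 0.24, 0.0362) as higher and mt-Nd3 (-0.67 ± 0.21, 0.0077) as lower, beside 0.491% of all genes called higher and 68.4% lower.

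The division of mitochondrial counts among the respiratory complexes was compared in the same way. In the deposited rows complex IV messengers took 35.2% ± 3.87 of mitochondrial counts in UPBIG, 37.9% ± 1.99 in UPSMALL and 40.3% ± 2.24 in DOWN. Complex I messengers took 18.9% ± 0.584, 18.4% ± 1.03 and 19.6% ± 1.41, and mt-Cytb took 8.29% ± 1.05, 6.81% ± 1.45 and 8.46% ± 0.622 (SD, n = 4). Complex V messengers took 18.7% ± 0.802 in UPBIG, 17.6% ± 0.812 in UPSMALL and 19.2% ± 0.284 in DOWN. UPSMALL and DOWN did not overlap in that class (two-sided exact permutation p = 0.0286, adjusted 0.137), but they did once copies were merged, when complex IV made up 51.7%, 55.1% and 57.5% of the total. No class passed after adjustment over the 24 tests. The 5 tests whose groups did not overlap had the smallest possible p, 0.0286, and the adjustment raised it to 0.137. Since even full separation did not pass, the adjusted values cannot show that the classes were unchanged.

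The position of UPSMALL between the other 2 groups was tested against their midpoint. Of the 13 protein genes, 12 lay below the midpoint in UPSMALL, with a median of -0.49 on the log2 scale. edgeR called 0 of the 20 members, beside 0.246% of all genes called and 0.0871% called lower, while 10 had an unadjusted p under 0.05. DESeq2 called 4, limma-voom 2 and edgeR with no low-count filter 6, all lower. mt-Rnr2 lay at the midpoint (0.00 ± 0.14).

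Counts of different genes were compared per kilobase of gene length. Per kilobase of gene and with copies merged, mt-Co3 was at the top with 13770.0 ± 1413 CPM in UPBIG, 10150.1 ± 1058 in UPSMALL and 10636 ± 1093 in DOWN (SD, n = 4). mt-Atp6 followed with 12468 ± 825, 7731 ± 834 and 7979 ± 731 CPM per kilobase. Across libraries their ranges overlapped in UPBIG (12718 to 15849 for mt-Co3 and 11351 to 13152 for mt-Atp6) and not in the other 2 groups. Within each UPBIG library mt-Co3 still lay above mt-Atp6. mt-Co1, mt-Co2, mt-Rnr2, mt-Nd1 and mt-Cytb came next in UPBIG at 9937, 8712, 4475, 3894 and 3363 CPM per kilobase, and neighbours in that order overlapped except mt-Co2 and mt-Rnr2. In DOWN, mt-Rnr2 at 1779 ± 142 CPM per kilobase stood below mt-Nd1 at 2704 ± 452 and mt-Cytb at 2130.1 ± 321. mt-Nd5, at 322 ± 92.6, 159 ± 43.3 and 197 ± 59.1 CPM per kilobase, had the fewest counts per kilobase of the protein genes after mt-Nd4l.

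The tRNAs gave few counts, 527 to 2283 per library over all 19, and the highest value was in UPSMALL replicate 4. Those on the minus strand of the reference held 519 to 2270 of them and those on the plus strand 2 to 29. mt-Ts1, which carries serine and whose gene overlaps the end of mt-Co1 by 3 bases on the other strand, held 9971 counts over the 12 libraries, followed by mt-Te, the glutamate tRNA, with 949 and mt-Tq, the glutamine tRNA, with 423. mt-Ts1 had 46.1, 55.4, 84.1 and 47.2 CPM in UPBIG, 36.5, 28.8, 29.1 and 71.5 in UPSMALL, and 27.2, 20.3, 30.04 and 31.1 in DOWN. It rose against DOWN (1.10 ± 0.29, edgeR adjusted p = 0.0203), a call lost without DOWN replicate 1 or 2 and with library totals alone (adjusted p up to 0.0993), and did not pass against UPSMALL (0.49 ± 0.29, 0.429), where it passed without UPSMALL replicate 4 (0.90 ± 0.20, 0.0129). mt-Te, mt-Tp, mt-Tq and mt-Tc, at 0.178 to 7.90 CPM in all libraries, were not called by edgeR in any comparison of all 12 libraries, and without UPSMALL replicate 4 mt-Te passed against DOWN (0.94 ± 0.30, edgeR adjusted p = 0.0353). The other 14 tRNAs held at most 60 counts each over all libraries and were not tested. Without strand, reads of a tRNA and of the transcript that crosses it on the other strand cannot be told apart.

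Nuclear genes for the same respiratory complexes were set beside the mitochondrial ones. Of 77 tested nuclear subunits of complexes I to V, 26 rose and 1 fell in UPBIG against DOWN, with a median log2 fold change of 0.29, beside 9.03% of all genes called higher and 8.48% lower. In UPBIG against UPSMALL 3 rose and 0 fell, with a median of 0.16, beside 3.22% and 2.49%. These medians became -0.03 and -0.12 with library totals alone, where 2 rose and 9 fell against DOWN and 1 rose and 2 fell against UPSMALL, while the mitochondrial protein genes stood at the medians of 0.66 and 0.70 given above. Under that scaling 4.1% of all genes were called higher and 25.6% lower against DOWN, and 1.5% higher and 11.3% lower against UPSMALL. In complex IV 6 of 11 rose against DOWN, beside the 9.03% of all genes. Cox5a, which binds at the core of the enzyme, averaged 754 ± 55.3 CPM in UPBIG, 591 ± 42.3 in UPSMALL and 479 ± 29.0 in DOWN, and rose by 0.66 ± 0.10 against DOWN and 0.35 ± 0.10 against UPSMALL (edgeR adjusted p = 0.000148 and 0.0462). Ndufa4 rose by 0.73 ± 0.12 and Cox6b1 by 0.49 ± 0.11 against DOWN. With library totals alone Cox5a and Ndufa4 were still called higher against DOWN, at 0.34 and 0.40.

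The other complexes are also read against the 9.03% of all genes called higher and 8.48% called lower against DOWN. In complex I, 10 of 36 nuclear subunits rose against DOWN and 0 fell, led by Ndufa1 (0.57 ± 0.12), Ndufa3 (0.60 ± 0.12) and Ndufab1 (0.42 ± 0.10). Complex V had 7 of 17 higher, led by Atpif1, which encodes the inhibitor of ATP hydrolysis (0.65 ± 0.12), and by Atp5g1 and Atp5g3, which both encode the membrane ring subunit (0.44 ± 0.11 and 0.39 ± 0.10). Complex II, which has no mitochondrial subunit, had Sdha and Sdhc higher of 4. Sdha, the flavoprotein that oxidises succinate, averaged 184 ± 9.35 CPM in UPBIG, 115 ± 6.92 in UPSMALL and 122 ± 4.23 in DOWN (SD, n = 4). It rose by 0.59 ± 0.10 against DOWN and 0.67 ± 0.10 against UPSMALL (edgeR adjusted p = 0.000227 and 0.000151). Complex III had Uqcrq higher (0.46 ± 0.14) and Uqcrfs1, the iron-sulfur protein, lower (-0.51 ± 0.11) of 9. With library totals alone 0 subunits of complexes I, II, III and V were called higher against DOWN. Those called lower then numbered 4, 0, 3 and 2, beside 4.1% of all genes higher and 25.6% lower.

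Genes that make and process mitochondrial RNA were mostly not called. Of 9 tested genes of mitochondrial transcription 0 rose and 0 fell in either comparison by edgeR, and with library totals alone 0 rose and 3 fell against DOWN, where 25.6% of all genes fell. Tfam averaged 15.9 ± 2.98 CPM in UPBIG, 15.9 ± 1.78 in UPSMALL and 22.2 ± 5.59 in DOWN (SD, n = 4), with a log2 fold change of -0.48 ± 0.19 against DOWN (edgeR adjusted p = 0.0875). Polrmt was near the lower limit of detection at 3.36 ± 0.584, 2.76 ± 0.834 and 2.70 ± 0.795 CPM, with 0.32 ± 0.36 (0.611). Among 28 genes of mitochondrial RNA processing and decay, Rexo2, an exonuclease that clears short RNAs (0.46 ± 0.11, edgeR adjusted p = 0.00641), and Slirp (0.30 ± 0.10, 0.0467) rose against DOWN and 0 fell, but with library totals alone 0 rose and 7 fell. Both counts are near the shares of all genes, 9.03% higher in the first scaling and 25.6% lower in the second. Lrpprc stood at 0.19 ± 0.15 (0.421).

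Genes that copy and maintain mitochondrial DNA fell in 3 of 16 cases against DOWN and rose in 0, beside 8.48% of all genes lower, and with library totals alone 5 fell, beside 25.6%. The polymerase subunits Polg and Polg2 stood at -0.63 ± 0.16 and -1.75 ± 0.38, and the helicase-nuclease Dna2 at -0.79 ± 0.19 (edgeR adjusted p = 0.00884, 0.00287 and 0.00539). Polg averaged 10.6 ± 1.19 CPM in UPBIG, 15.6 ± 1.06 in UPSMALL and 16.5 ± 1.52 in DOWN (SD, n = 4), and also fell against UPSMALL (-0.56 ± 0.16, edgeR adjusted p = 0.0461). Of 7 nuclear regulators of respiratory genes, Nrf1 fell against DOWN (-0.83 ± 0.25, edgeR adjusted p = 0.0262). Of 17 import, chaperone and porin genes, the chaperones Hspd1 and Hspa9 rose (0.41 ± 0.12 and 0.38 ± 0.11), and the outer membrane channel Vdac3 and the import receptor Tomm70a fell (-0.43 ± 0.13 and -0.43 ± 0.14), all against DOWN. With 9.03% of all genes higher and 8.48% lower, the counts for these chaperone, import and porin genes and for the regulators are near the background.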

How the data were processed

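Expected counts per gene were deposited by the authors for 12 libraries; per the submitters' processing notes, STAR, RSEM and mm10 were used. Versions, gene annotation and strandedness of the counting were not given in the sources used here. Of the deposited expected counts 13.8% were not whole (RSEM divides reads that fit several genes), and 26775 of 26855 identifiers matched a symbol in GENCODE M21.

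Counts were rounded, and filterByExpr left 12625 genes. All 12 libraries were fitted with edgeR 4.0.16 in R 4.3.3 by its robust quasi-likelihood test after TMM scaling, without a block, with Benjamini-Hochberg adjusted p under 0.05 as a call. CPM values use TMM-scaled totals, except values per kilobase, which use library totals. For shifts within mitochondrial RNA the mitochondrial total replaced the library total. For shares, exact two-sided permutation p-values were adjusted over a family of 24. Nuclear copies were found with BLAST 2.17.0+ among GENCODE transcripts. Totals of 17109669 to 23282621 set the precision, and PCR reads without molecular identifiers carry more than counting error.

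The members, lists and tests were chosen with earlier results of these data known. All mt- genes were named, and of each nuclear list up to 3 called genes with the smallest p in UPBIG against DOWN or UPSMALL, plus Tfam, Polrmt and Lrpprc. Alternatives were RLE size factors, library totals, scaling from nuclear genes, no filter, 5 CPM in 4 libraries, DESeq2 1.42.0, limma-voom with quality weights (limma 3.58.1), a replicate block, 8 libraries only, nuclear copies left out and each library left out. The fit was checked on simulated counts.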

Additional observations from a re-analysis of the deposited data

Results flagged for a closer look

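In 9 of 87 groups of 4 examined, a measure held 1 library far from the other 3, and chance alone flags about 1 in 20 groups. mt-Co1 accounts for 2 of them, both in the deposited row. It had 12379 CPM in UPBIG replicate 2 against 9134 to 9493 CPM in the other UPBIG libraries, and 3939 CPM in DOWN replicate 4 against 5657 to 5972 CPM in the other DOWN libraries. mt-Nd4 had 2656 CPM in UPBIG replicate 1 against 3190.4 to 3297 CPM in the others.

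UPBIG replicate 3 was apart in 2 measures. Complex V messengers took 17.5% of its mitochondrial counts against 19.0% to 19.2% in the other UPBIG libraries, and mt-Tq had 3.16 CPM against 1.16 to 1.49 CPM. In UPSMALL replicate 1, complex IV messengers took 34.9% of mitochondrial counts against 38.8% to 39.1% in the other UPSMALL libraries. mt-Te had 6.38 CPM in UPSMALL replicate 4 against 2.55 to 3.08 CPM in the others, and 2.16 CPM in DOWN replicate 2 against 3.11 to 3.20 CPM in the other DOWN libraries. DOWN replicate 2 also had the lowest share of mitochondrial counts from minus-strand genes, 1.06% against 1.27% to 1.29%.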

How the results depend on the processing

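Calls of mt-Rnr2, mt-Nd1, mt-Nd2, mt-Co1, mt-Atp6, mt-Nd4, mt-Nd6 and mt-Cytb in UPBIG against DOWN and against UPSMALL kept their direction and passed in all 24 settings. With 1 library left out the members called numbered 9 to 13 in UPBIG against DOWN, 9 to 11 in UPBIG against UPSMALL, 0 to 1 in UPSMALL against DOWN and 0 to 3 for UPSMALL against the midpoint. The midpoint count of 0 became 6 with no low-count filter, 4 with DESeq2, 2 with limma-voom and 4 with the replicate block. Relative to the mitochondrial total, leaving out 1 library gave 2 to 3, 0 to 5 and 0 to 1 calls in UPBIG against DOWN, UPBIG against UPSMALL and UPSMALL against DOWN, and the 2 calls in UPBIG against UPSMALL became 4 with the replicate block and 4 with copies merged. The differences in mitochondrial share ranged over 1.56 to 1.94, 1.40 to 1.77 and 0.0296 to 0.281 percentage points with 1 library left out. With protein genes only, UPSMALL minus DOWN turned to -0.0625 (exact permutation p = 0.771). Transcript classes with no overlap numbered 1, 0 and 2 of 7 in the 3 comparisons. They became 0, 1 and 0 with protein genes only, 2 in the first with the replicate block, and 1 in the third with lengths divided out or copies merged. Leaving out 1 library gave 1 to 2, 0 to 1 and 2 to 3. The cause of these changes was not tested.

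Replicate numbers were not treated as pairing the samples, since 6 of 12 same-numbered pairs, not all, had deviations correlated above 0.1 (range -0.03 to 0.15). Of different-numbered pairs, 0 of 12 exceeded 0.1 in UPBIG with DOWN, 2 of 12 in UPBIG with UPSMALL and 0 of 12 in UPSMALL with DOWN. In UPBIG with DOWN all 4 same-numbered pairs (0.04 to 0.13) lay above every different-numbered one (at most 0.01). In 18 of 24 comparisons of a library with another group the best match had its own number, a hint from the data, and the labels do not say whether a number marks a shared mouse or day. With the replicate block, 12, 11 and 1 members were called. The share differences of 1.75 and 1.59 percentage points then had an exact sign-flip p of 0.125, the smallest that 4 pairs allow. Depth limits the tRNAs, of which 14 had too few counts to test.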
